A study of Danio rerio with 20 samples.

Results

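The cytochrome P450 genes of families 2 and 3 were followed in whole zebrafish larvae exposed to a mixture of persistent organic pollutants, to perfluorooctanesulfonic acid (PFOS) alone, or to solvent. The members were all gene symbols of the deposited table that begin with cyp2 or cyp3 followed directly by a letter, which leaves out families such as cyp24, cyp26 and cyp27. This gave 43 of 22851 symbols, 38 in family 2 and 5 in family 3, and 39 of the 43 were tested. Larvae were of the AB wild type, were exposed from 6 to 96 hours post fertilization and were collected whole at 96 hours. POP10 and POP70 larvae had the mixture at 10 and 70 times average levels in Scandinavian blood. PFOS10 and PFOS70 larvae had PFOS alone at its amount in each mixture, and Control larvae had the solvent, 0.1% dimethyl sulfoxide. The solvent level of the exposed groups is not stated in the labels. RNA was sequenced from 4 pools of 10 larvae in each of the 5 groups. The labels do not say whether the pools came from separate clutches, and p-values therefore reflect the spread among pools, which may be technical.

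Cytochromes P450 of families 2 and 3 are heme enzymes of the endoplasmic reticulum that oxidise drugs, pollutants, steroids and fatty acids, with electrons passed on by P450 oxidoreductase and cytochrome b5. In vertebrates many of them are made in liver and intestine. In mammals the transcription of CYP3A genes is raised by the pregnane X receptor (nr1i2), a nuclear receptor that binds many foreign compounds and pairs with retinoid X receptors. Fish carry several subfamilies of family 2 that lie in tandem arrays of similar genes. In these data 6 groups of neighbours, with gaps of at most 500000 bases, held 38 of the 43 members, and 5 members lay alone. In bulk samples such as these, fewer cells of a type and less RNA per cell cannot be told apart.

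Expression is given as log2 RPM (log2 of reads scaled to a common library total), which is not divided by transcript length, so levels of different genes are not compared. Depth was 8572287 to 11243573 reads per library, and a transcript with 0 reads is written as 0.9 reads. The PFOS10 libraries stood apart from the rest. On the first principal component, which held 39.6% of the variance, they lay at 49.4 to 61.5, against at most 9.81 in POP10, POP70 and PFOS70 and -14.7 to 21.9 in Control. They also listed 4014 to 4120 transcripts at 0 reads, against 3422 to 3690 in Control. The labels give no batch, so exposure and any batch that followed the groups cannot be told apart. Each result set against PFOS10 rests on these 4 libraries.

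In larvae exposed to PFOS at the lower level, 7 members were lower than in solvent controls, cyp2r1 and cyp3a65 among them. The count ran from 1 to 13 when 1 library was left out. The call of cyp3a65 was close to the threshold (limma adjusted p = 0.0448). No member passed the test against Control in the other 3 exposed groups. Between PFOS10 and Control, 7 of the 39 tested members (17.9%) were lower and 0 were higher at a limma adjusted p under 0.05, against 6.97% of all 19289 genes tested that were lower. The 7 were cyp3a65, cyp3c1, cyp2r1, cyp2ad3, cyp2p8, cyp2aa11 and cyp2k6, with log2 differences from -2.92 to -0.44. The difference was negative for 36 of 39 members, beside 54.4% of all genes, with a median of -0.59 beside -0.027 over all genes. Unadjusted p was under 0.05 for 20 members, all of them lower, while 18% of all genes were lower at such a p. In 7 members, not the same set, the PFOS10 libraries all lay below the Control libraries, as they did in 9.11% of all genes. These were cyp2r1, cyp2ad3, cyp3c1 and cyp2p8, which were called, and cyp2aa7, cyp2j20 and cyp2k8, which were not.

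Set against PFOS10, more members were past the threshold, in both POP10 and PFOS70. Between POP10 and PFOS10, 20 of 39 members (51.3%) were higher and 0 lower, against 19.8% of all genes that were higher, and the median log2 difference was 0.80 beside 0.037 over all genes. Between PFOS70 and PFOS10, 24 of 39 members (61.5%) were higher and 0 lower, against 23.6% of all genes that were higher, with a median of 1.11 beside 0.046. All POP10 libraries lay above all PFOS10 libraries in 15 members (16.8% of all genes), and all PFOS70 libraries did so in 21 members (20.6% of all genes). Unadjusted p was under 0.05 for 25 and 30 members, all of them higher, while 25.4% and 28.4% of all genes were higher at such a p. These comparisons and the one of PFOS10 with Control share the PFOS10 libraries, so they are not independent, and their values are set side by side below.

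How far these counts depend on the scale was measured by shifting every library to the same median. That moved the median of all genes by -0.14 between PFOS70 and PFOS10, by -0.10 between POP10 and PFOS10 and by 0.088 between PFOS10 and Control. Over all genes, 3466 were then higher and 4933 lower in PFOS70 than in PFOS10, against 4557 and 2077 as deposited. Between POP10 and PFOS10 they were 3019 higher and 4199 lower, against 3812 and 2239, and between PFOS10 and Control 1132 higher and 1087 lower, against 247 and 1344. The shift moved the members' medians by the same amounts, to 0.96, 0.70 and -0.50, and the members called numbered 24, 19 and 8. Quantile normalization changed more. The members' medians were then 0.60, 0.49 and -0.34, beside -0.091, -0.066 and 0.050 over all genes. Fewer members were then called between POP10 and PFOS10 and between PFOS10 and Control, as counted in the last section. Between PFOS70 and PFOS10 the calls of cyp2j20, cyp2k16, cyp2k17, cyp2k18, cyp2p7 and cyp2x7 ended as well. The shift of 0.088 could not reverse any of the 7 members named for PFOS10 against Control, whose smallest difference was -0.44. Under quantile normalization each of the 7 kept its direction.

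**Figure D1:**
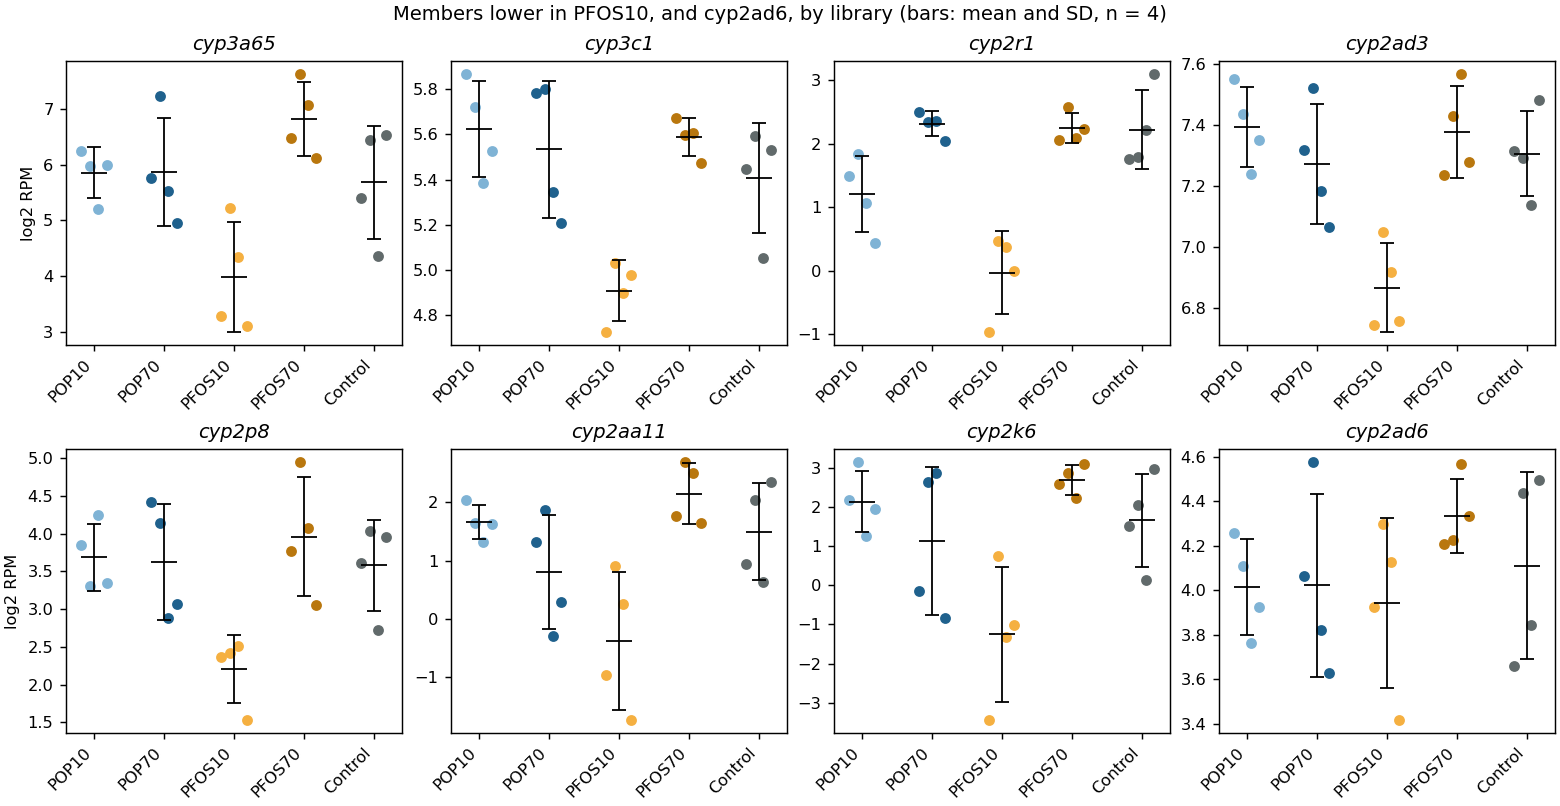
log2 RPM of each library for the 7 members that were lower in PFOS10 than in Control and for cyp2ad6, which was not, with 4 libraries a group and each panel on its own vertical axis. Points are libraries, and bars give the mean and SD. In cyp2r1, cyp2ad3, cyp3c1 and cyp2p8 the 4 PFOS10 points lie below all 4 Control points. In cyp3a65, cyp2aa11 and cyp2k6 the ranges of PFOS10 and Control overlap.

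Markers of liver, gut and exocrine pancreas moved in the same libraries. Of 18 tested hepatocyte markers, 15 were lower in PFOS10 than in Control, beside 6.97% of all genes, with a median log2 difference of -1.43. The summed level of the list was 4182 to 6295 RPM in POP10, 3680 to 6305 in POP70, 1387 to 3092 in PFOS10, 5434 to 9646 in PFOS70 and 2858 to 8391 in Control, so PFOS10 and Control overlapped. Of 12 enterocyte markers 5 were lower (median -1.13), with sums of 492 to 902 RPM in PFOS10 and 1008 to 1854 in Control, which did not overlap. Of 13 exocrine pancreas markers 5 were lower (median -1.60), with sums of 55.0 to 175 RPM in PFOS10 and 245 to 547 in Control, which did not overlap either. No marker of the 3 lists was at 0 reads in all 4 libraries of any group. Against PFOS10, all 18, 12 and 13 markers were higher in PFOS70, and 18, 10 and 9 were higher in POP10, beside 23.6% and 19.8% of all genes. The part of these markers in the members' results was not tested.

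Up to 4 markers per list are named, those of smallest limma p between PFOS70 and PFOS10. They were picked by that p, so their values do not stand for the whole lists. The hepatocyte marker itih2 (inter-alpha-trypsin inhibitor heavy chain) differed by -1.14 (adjusted p = 0.0230) between PFOS10 and Control and by 2.2 (adjusted p = 4.8e-05) between PFOS70 and PFOS10. In the same comparisons cp (ceruloplasmin, a copper carrier) differed by -1.27 (adjusted p = 0.0101) and 2.03 (adjusted p = 5.01e-05). The thyroid hormone carrier ttr differed by -2.17 (adjusted p = 0.0145) and 3.51 (adjusted p = 7.35e-05), and ahsg2, a fetuin-type plasma protein, by -2.76 (adjusted p = 0.00854) and 4.04 (adjusted p = 7.36e-05). Among enterocyte markers the brush-border protease mep1a.2 differed by -1.8 (adjusted p = 0.00443) and 1.83 (adjusted p = 0.000374), and the lipoprotein gene apoa4b.1 by -1.42 (adjusted p = 0.0141) and 1.69 (adjusted p = 0.000620). The endocytic receptor cubn differed by -0.90 (adjusted p = 0.0420) and 1.39 (adjusted p = 0.000624), and the aminopeptidase anpepb by -1.35 (adjusted p = 0.0175) and 1.54 (adjusted p = 0.00119). All of these were past the threshold in both comparisons. So were 4 digestive enzymes of the exocrine pancreas. The chymotrypsin-like protease ctrl differed by -2.0 (adjusted p = 0.0214) and 2.62 (adjusted p = 0.000632), and the carboxypeptidase cpa5 by -1.62 (adjusted p = 0.0376) and 2.4 (adjusted p = 0.000707). The elastase ela3l differed by -2.01 (adjusted p = 0.0256) and 2.68 (adjusted p = 0.000748), and the amylase amy2a by -1.93 (adjusted p = 0.0434) and 2.89 (adjusted p = 0.000841). The fifth lower marker of gut was mep1a.1, at -1.81 (adjusted p = 0.00803), and that of pancreas was ela2, at -1.76 (adjusted p = 0.0444), both named after their values were seen.

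Libraries also differed within a group, and many members shared the same highest or lowest library. The share of all genes at the same end was not counted, so this is not shown to be particular to the members. In Control, library 3 was the lowest of its group in 25 of 39 members, while library 4 was the highest in 16 and library 2 in 14. In PFOS70, library 2 was the highest in 27 members and library 4 the lowest in 26. In POP70, library 4 was the lowest in 22, and in POP10, library 1 was the highest in 21. In PFOS10, library 2 was the highest in 17 and library 4 the lowest in 16. The median of all tested genes was the highest of its group in PFOS70 2 (4.57 log2 RPM) and POP10 1 (4.50). It was the lowest in PFOS70 4 (4.44) and POP70 4 (4.40), but in Control the lowest was library 1 (4.41) and not library 3 (4.46). As log2 differences from the member's Control mean, the median member lay at -0.46, -0.48, -0.63 and -0.70 in the 4 PFOS10 libraries, at 0.78 in PFOS70 2 and at -0.48 in Control 3. Members above their Control mean numbered 4 to 6 of 39 in the PFOS10 libraries and 9 in Control 3, against 37 in PFOS70 2.

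**Figure D2:**
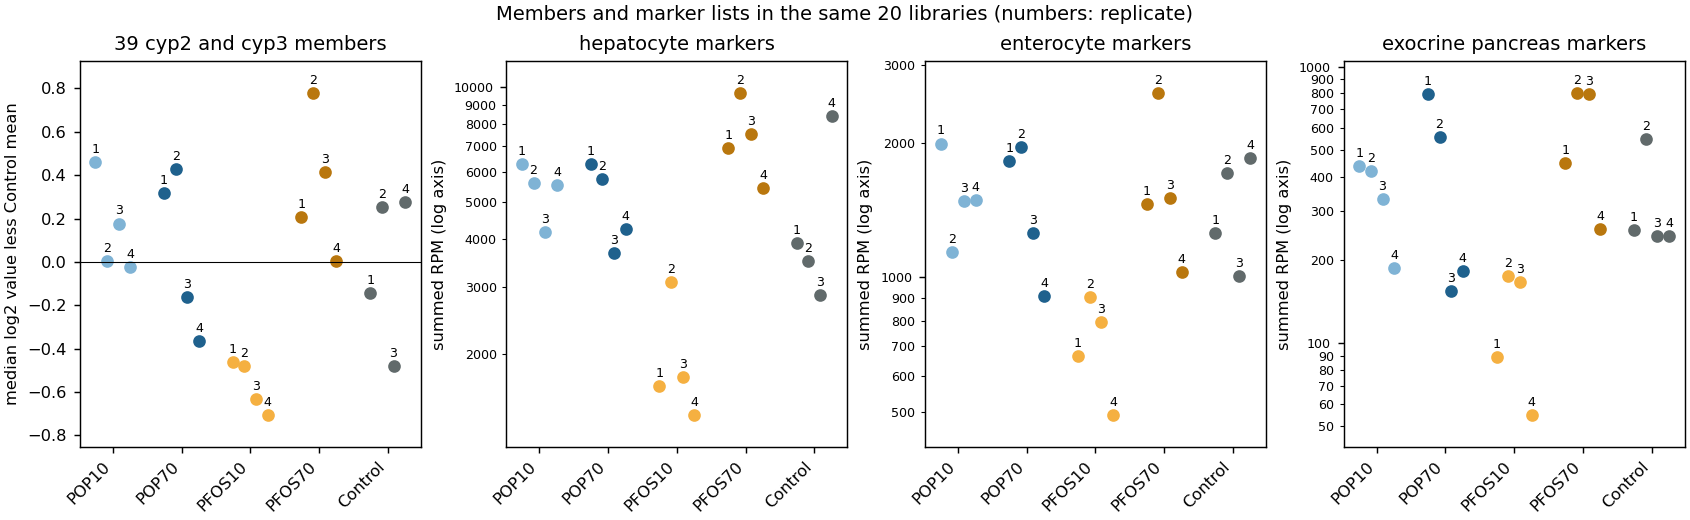
The first panel plots, for each of the 20 libraries, the median over 39 members of the log2 value less the member's Control mean. The other panels plot the summed RPM of hepatocyte, enterocyte and exocrine pancreas markers on log axes. Points are single libraries, and the digit above each is its replicate number. The 4 PFOS10 libraries lie at -0.70 to -0.46 in the first panel, beside Control 3 at -0.48, and they hold the lowest enterocyte sums, 492 to 902 RPM.

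Without Control 3, 13 members were lower in PFOS10 than in Control, and without Control 4 the number was 1. Leaving out Control 1, Control 2, PFOS10 1, PFOS10 2, PFOS10 3 or PFOS10 4 gave 3, 2, 2, 11, 3 and 6 members. No member was higher in any of these fits. Recovered reads gave 3 lower members by limma voom.

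Family 3 holds the subfamily 3A gene of drug metabolism and the 3C genes known from fish. cyp3a65, whose transcript has been located in liver and intestine of zebrafish larvae, lies alone on chromosome 1, 59338175 to 59348118, minus strand. cyp3a65 had 6.25, 5.97, 5.21 and 6.0 log2 RPM in POP10, 5.77, 7.23, 5.52 and 4.96 in POP70, 3.29, 5.22, 4.34 and 3.1 in PFOS10, 6.48, 7.63, 7.06 and 6.12 in PFOS70, and 5.4, 6.44, 4.37 and 6.53 in Control. PFOS10 held the 3 lowest values of all groups, and PFOS10 2 lay within the range of Control. The difference between PFOS10 and Control was -1.7 ± 0.51 (SE, adjusted p = 0.0448). It was 1.87 ± 0.51 (SE, adjusted p = 0.0100) between POP10 and PFOS10, where PFOS10 2 and POP10 3 overlapped, and 2.84 ± 0.51 (SE, adjusted p = 0.000400) between PFOS70 and PFOS10, where no libraries overlapped. The first of these calls was close to the threshold. It ended without any 1 of POP10 1, POP10 2, POP10 4, POP70 3, PFOS10 1, PFOS10 3, PFOS10 4, PFOS70 1, PFOS70 3, Control 1, Control 2 or Control 4, with adjusted p up to 0.162, and also with no filter, after quantile normalization, with a pseudocount of 1 RPM, with the 2 groups alone in the fit or by limma voom, with adjusted p up to 0.0794.

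The 3C genes form a tandem array on chromosome 3, 40936097 to 40976582, where 1 of 4 was lower in PFOS10 than in Control, beside 6.97% of all genes. cyp3c1 had 5.87, 5.72, 5.38 and 5.52 log2 RPM in POP10, 5.78, 5.8, 5.34 and 5.21 in POP70, 4.73, 5.03, 4.9 and 4.98 in PFOS10, 5.67, 5.6, 5.61 and 5.47 in PFOS70, and 5.45, 5.59, 5.05 and 5.53 in Control. All 4 PFOS10 libraries lay below every other library. The difference of cyp3c1 was -0.50 ± 0.14 (SE, adjusted p = 0.0320) between PFOS10 and Control, 0.71 ± 0.14 (SE, adjusted p = 0.00120) between POP10 and PFOS10 and 0.68 ± 0.14 (SE, adjusted p = 0.000929) between PFOS70 and PFOS10. Its call against Control ended without PFOS10 1, PFOS10 3, Control 1, Control 2 or Control 4 (adjusted p up to 0.110) and after quantile normalization (up to 0.0631). Of its other transcripts, cyp3c1-203 and cyp3c1-204 were lower as well, at -0.66 (adjusted p = 0.017) and -0.50 (0.0316), while cyp3c1-202 was at -0.41 (0.276). Transcripts of 1 gene can share reads, so their values are not independent. Over all transcripts the libraries sum to 3.13e+06 to 3.39e+06 RPM, so reads were counted for more than 1 transcript.

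The neighbours of cyp3c1 had lower values in PFOS10 without passing the test against Control. cyp3c4 had 3.74, 2.86, 2.97 and 2.93 log2 RPM in POP10, 3.03, 3.72, 2.88 and 2.32 in POP70, 2.07, 2.52, 2.32 and 1.76 in PFOS10, 3.19, 4.14, 3.69 and 3.18 in PFOS70, and 2.92, 3.51, 2.38 and 3.58 in Control. PFOS10 overlapped Control through Control 3 alone and lay below POP10 and PFOS70. cyp3c4 differed by -0.93 ± 0.30 (SE, adjusted p = 0.0581) between PFOS10 and Control, by 0.96 ± 0.30 (SE, adjusted p = 0.0203) between POP10 and PFOS10 and by 1.38 ± 0.30 (SE, adjusted p = 0.00156) between PFOS70 and PFOS10. The second of these ended without POP10 1 or PFOS10 4 (adjusted p up to 0.0836) and after quantile normalization (adjusted p = 0.0626). cyp3c3 had 2.99, 1.97, 2.6 and 1.54 log2 RPM in POP10, 2.19, 3.36, 1.85 and 1.42 in POP70, 1.04, 2.33, 1.2 and -0.52 in PFOS10, 2.41, 3.31, 2.98 and 2.12 in PFOS70, and 2.28, 2.91, 1.41 and 3.54 in Control. Here PFOS10 2 lay inside the Control and PFOS70 ranges, and PFOS10 4 was the lowest of all. cyp3c3 was past the threshold between PFOS70 and PFOS10, at 1.69 ± 0.52 (SE, adjusted p = 0.0169), a call that ended without PFOS10 4 or PFOS70 2, with adjusted p up to 0.0652. It was at -1.52 (adjusted p = 0.0739) between PFOS10 and Control and at 1.26 (adjusted p = 0.0721) between POP10 and PFOS10. The fourth, cyp3c2, was past the threshold in no comparison, with -0.64 (adjusted p = 0.475) between PFOS10 and Control.

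cyp2r1 had the smallest adjusted p of any member. Its mammalian counterpart is the liver 25-hydroxylase that makes the circulating form of vitamin D. cyp2r1 had 1.49, 1.84, 1.06 and 0.44 log2 RPM in POP10, 2.51, 2.35, 2.36 and 2.04 in POP70, -0.96, 0.47, 0.38 and -0.0022 in PFOS10, 2.06, 2.59, 2.1 and 2.24 in PFOS70, and 1.76, 1.8, 2.22 and 3.1 in Control. In PFOS10 this stood for 5 to 14 reads per library, against 37 to 87 in Control. The groups PFOS10 and Control did not overlap, and POP10 overlapped both, with POP10 4 inside the PFOS10 range. The difference of cyp2r1 was -2.25 ± 0.33 (SE, adjusted p = 0.00106) between PFOS10 and Control, 1.24 ± 0.33 (SE, adjusted p = 0.00879) between POP10 and PFOS10 and 2.28 ± 0.33 (SE, adjusted p = 8.46e-05) between PFOS70 and PFOS10. Each of the 20 fits that left out 1 library kept the call against Control. The call of POP10 against PFOS10 ended after quantile normalization (0.72, adjusted p = 0.0771). All POP70 libraries also lay above all POP10 libraries, where the difference was 1.11 ± 0.33 (SE, adjusted p = 0.9999) and did not pass. Between POP10 and Control it was -1.01 ± 0.33 (SE, adjusted p = 0.510).

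The reads of cyp2r1 may be shared with a gene on the other strand. The transcript used lies on chromosome 7, 27691647 to 27697234, plus strand, and calca-203, a transcript of the calcitonin gene, covers 27683291 to 27696958 on the minus strand. The sources used here do not give whether counting used the strand. calca-203 averaged 2.87 ± 0.33 log2 RPM in PFOS10 and 3.26 ± 0.068 in Control (SD, n = 4 each), a difference of -0.39 ± 0.15 (SE, adjusted p = 0.123) that did not pass. The other tested transcripts of cyp2r1 were lower in PFOS10 as well, cyp2r1-202 by -2.67 ± 0.70 (SE, adjusted p = 0.0264) and cyp2r1-203 by -2.46 ± 0.72 (SE, adjusted p = 0.0396). They can share reads with the transcript used and are not independent of it. cyp2u1, which encodes a fatty acid hydroxylase in mammals, also lies alone, on chromosome 1, 49923402 to 49932040, minus strand. That gene was past the threshold in no comparison, with 0.15 (adjusted p = 0.782) between PFOS10 and Control and -0.24 (adjusted p = 0.555) between PFOS70 and PFOS10.

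**Figure D3:**
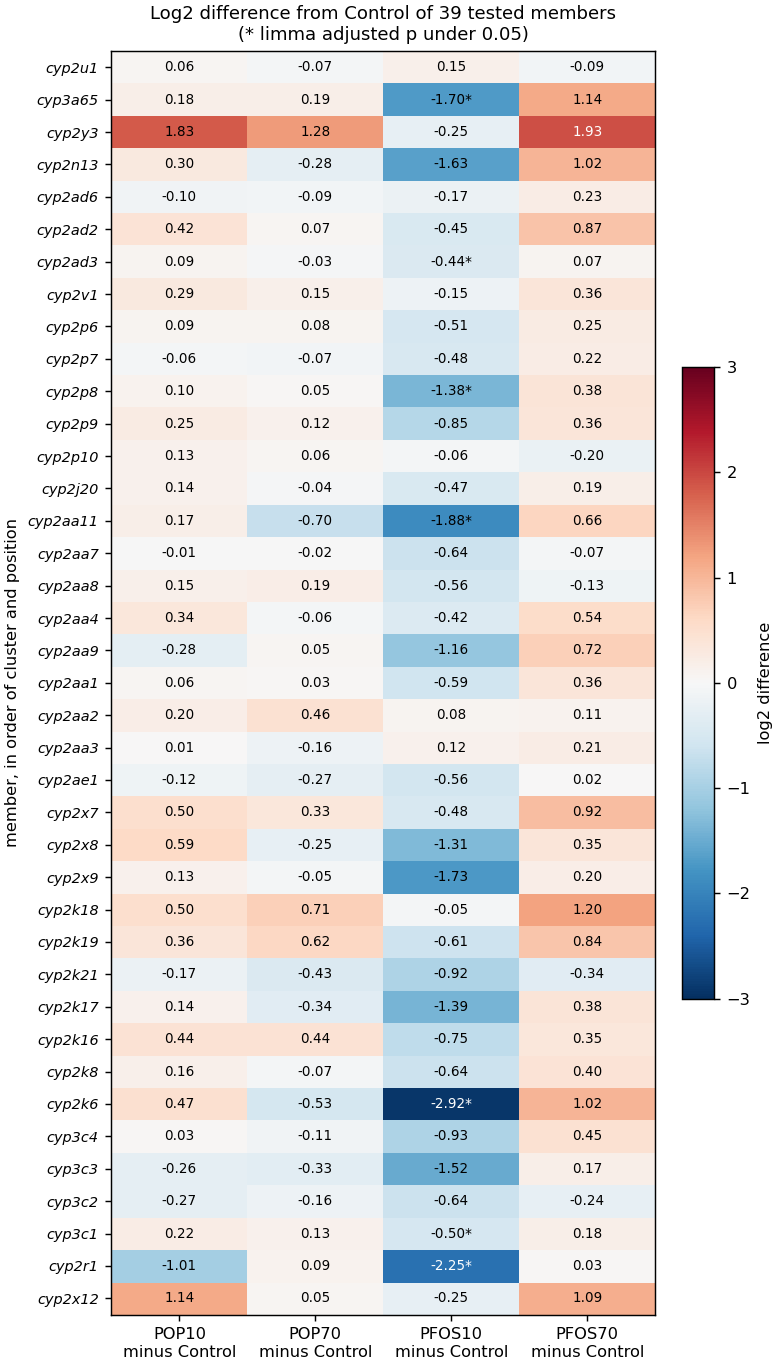
Log2 difference from Control of the 39 tested members in POP10, POP70, PFOS10 and PFOS70, with members ordered by group of neighbours and position. Each cell gives the limma estimate, red for above and blue for below Control, and a star marks an adjusted p under 0.05. All 7 stars stand in the PFOS10 column, where values run from -2.92 for cyp2k6 to 0.15 for cyp2u1.

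The largest array, 11 members on chromosome 20 from 25515259 to 25615802, holds relatives of the mammalian CYP2J genes. Human CYP2J2 turns arachidonic acid into epoxides, and killifish enzymes of subfamilies 2N and 2P also metabolise this fatty acid. Of the 11, 2 were lower in PFOS10 than in Control, 8 were higher in POP10 than in PFOS10 and 9 were higher in PFOS70 than in PFOS10. Over all genes these shares were 6.97%, 19.8% and 23.6%. cyp2ad3 had 7.55, 7.44, 7.24 and 7.35 log2 RPM in POP10, 7.32, 7.52, 7.18 and 7.07 in POP70, 6.74, 7.05, 6.92 and 6.76 in PFOS10, 7.24, 7.43, 7.57 and 7.28 in PFOS70, and 7.31, 7.29, 7.14 and 7.48 in Control. PFOS10 lay below every library of the other groups in cyp2ad3, by a narrow margin. The difference was -0.44 ± 0.10 (SE, adjusted p = 0.0154) between PFOS10 and Control, 0.53 ± 0.10 (SE, adjusted p = 0.00131) between POP10 and PFOS10 and 0.51 ± 0.10 (SE, adjusted p = 0.000886) between PFOS70 and PFOS10. The first ended without PFOS10 1 or Control 4 (adjusted p up to 0.0720). cyp2p8 had 3.85, 3.3, 4.24 and 3.34 log2 RPM in POP10, 4.42, 4.14, 2.88 and 3.06 in POP70, 2.36, 2.42, 2.51 and 1.53 in PFOS10, 3.77, 4.95, 4.07 and 3.05 in PFOS70, and 3.6, 4.04, 2.72 and 3.95 in Control. Here too all PFOS10 libraries were the lowest, and PFOS10 4 stood well below the other 3. cyp2p8 differed by -1.38 ± 0.39 (SE, adjusted p = 0.0344) between PFOS10 and Control, by 1.48 ± 0.39 (SE, adjusted p = 0.00763) between POP10 and PFOS10 and by 1.76 ± 0.39 (SE, adjusted p = 0.00179) between PFOS70 and PFOS10. Its call against Control ended without PFOS10 1, PFOS10 3, PFOS10 4, Control 1, Control 2 or Control 4 (adjusted p up to 0.116) and with no filter, after quantile normalization or by limma voom (up to 0.0763).

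In other members of this array PFOS10 differed from POP10 and PFOS70 but did not pass the test against Control. cyp2n13 had 4.33, 3.99, 3.6 and 4.03 log2 RPM in POP10, 3.62, 4.84, 2.81 and 2.36 in POP70, 0.96, 3.78, 2.23 and 1.26 in PFOS10, 4.36, 5.45, 4.85 and 4.16 in PFOS70, and 3.5, 4.36, 2.17 and 4.71 in Control. The spread was wide, and PFOS10 2 and 3 lay inside the Control range. cyp2n13 differed by -1.63 ± 0.58 (SE, adjusted p = 0.0813) between PFOS10 and Control, by 1.93 ± 0.58 (SE, adjusted p = 0.0161) between POP10 and PFOS10 and by 2.64 ± 0.58 (SE, adjusted p = 0.00164) between PFOS70 and PFOS10. Its call in POP10 ended without PFOS10 1 (adjusted p = 0.0644). cyp2p9 had 5.23, 4.75, 5.41 and 4.65 log2 RPM in POP10, 5.3, 5.21, 4.16 and 4.86 in POP70, 3.86, 4.33, 4.18 and 3.29 in PFOS10, 4.89, 5.63, 5.19 and 4.75 in PFOS70, and 4.85, 4.69, 4.22 and 5.28 in Control. Only PFOS10 2 exceeded the lowest Control value. cyp2p9 differed by -0.85 ± 0.27 (SE, adjusted p = 0.0575) between PFOS10 and Control, by 1.09 ± 0.27 (SE, adjusted p = 0.00567) between POP10 and PFOS10 and by 1.2 ± 0.27 (SE, adjusted p = 0.00215) between PFOS70 and PFOS10.

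Subfamily 2AD lies next to cyp2n13. cyp2ad2 had 3.73, 3.6, 3.03 and 3.41 log2 RPM in POP10, 3.15, 3.54, 3.13 and 2.56 in POP70, 2.0, 2.87, 3.12 and 2.32 in PFOS10, 3.9, 3.98, 3.93 and 3.75 in PFOS70, and 2.55, 3.18, 2.57 and 3.8 in Control. PFOS70 was the highest group and overlapped Control through Control 4 alone. cyp2ad2 differed by 1.31 ± 0.27 (SE, adjusted p = 0.000922) between PFOS70 and PFOS10 and by 0.86 ± 0.27 (SE, adjusted p = 0.0186) between POP10 and PFOS10, a call that ended without POP10 1, POP10 2 or PFOS10 1 (adjusted p up to 0.0759) and after quantile normalization (adjusted p = 0.0573). Between PFOS10 and Control it was at -0.45 (adjusted p = 0.303). cyp2ad6 had 4.26, 4.11, 3.76 and 3.92 log2 RPM in POP10, 4.06, 4.58, 3.82 and 3.63 in POP70, 3.93, 4.3, 4.13 and 3.42 in PFOS10, 4.21, 4.22, 4.57 and 4.34 in PFOS70, and 3.66, 4.44, 3.85 and 4.5 in Control. All 5 groups overlapped in cyp2ad6, and it was past the threshold in no comparison, with -0.17 (adjusted p = 0.662) between PFOS10 and Control. cyp2v1 had 4.34, 4.4, 4.12 and 4.27 log2 RPM in POP10, 4.32, 4.26, 4.0 and 4.0 in POP70, 3.92, 3.67, 3.97 and 3.84 in PFOS10, 4.63, 4.51, 4.16 and 4.12 in PFOS70, and 3.98, 4.34, 3.67 and 4.0 in Control. cyp2v1, the single 2V gene, was higher in POP10 and PFOS70 than in PFOS10 with no overlap. The difference was 0.44 ± 0.14 (SE, adjusted p = 0.0210) for POP10 and 0.51 ± 0.14 (SE, adjusted p = 0.00757) for PFOS70, and -0.15 (adjusted p = 0.529) between PFOS10 and Control. Its call in POP10 ended without POP10 1, POP10 2 or PFOS10 2 (adjusted p up to 0.0692) and after quantile normalization (adjusted p = 0.0769).

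Further along the array lie the remaining 2P genes and cyp2j20. cyp2p6 had 4.03, 3.6, 3.92 and 3.56 log2 RPM in POP10, 4.1, 4.22, 3.5 and 3.23 in POP70, 3.14, 3.42, 3.46 and 2.7 in PFOS10, 3.9, 4.01, 4.1 and 3.74 in PFOS70, and 3.54, 3.88, 3.29 and 4.02 in Control. PFOS10 lay below POP10 and PFOS70 and overlapped Control. cyp2p6 differed by 0.60 ± 0.21 (SE, adjusted p = 0.0366) between POP10 and PFOS10 and by 0.76 ± 0.21 (SE, adjusted p = 0.00902) between PFOS70 and PFOS10. The POP10 call ended without POP10 1, POP10 3, PFOS10 1 or PFOS10 4 (adjusted p up to 0.114) and with no filter or after quantile normalization (up to 0.0921). cyp2p7 had 3.64, 2.75, 2.78 and 3.11 log2 RPM in POP10, 2.65, 3.44, 3.33 and 2.81 in POP70, 2.69, 2.95, 2.72 and 2.23 in PFOS10, 3.19, 3.6, 3.46 and 3.15 in PFOS70, and 3.33, 3.48, 2.55 and 3.15 in Control. In cyp2p7 only PFOS70 was past the threshold against PFOS10, at 0.70 ± 0.23 (SE, adjusted p = 0.0229), which ended without PFOS10 4, PFOS70 2 or PFOS70 3 (adjusted p up to 0.0731) and after quantile normalization (adjusted p = 0.145). For POP10 it was at 0.42 (adjusted p = 0.170). cyp2j20 had 2.04, 1.84, 2.23 and 1.58 log2 RPM in POP10, 2.03, 2.21, 1.29 and 1.42 in POP70, 1.52, 1.42, 1.13 and 1.2 in PFOS10, 1.96, 2.44, 1.77 and 1.72 in PFOS70, and 1.87, 1.68, 1.98 and 1.61 in Control. All PFOS10 libraries of cyp2j20 lay below all POP10, PFOS70 and Control libraries. The differences were 0.61 ± 0.22 (SE, adjusted p = 0.0417) between POP10 and PFOS10 and 0.65 ± 0.22 (SE, adjusted p = 0.0268) between PFOS70 and PFOS10, and -0.47 (adjusted p = 0.191) between PFOS10 and Control, which did not pass. Without POP10 1, POP10 2, POP10 3, PFOS10 2, PFOS10 3 or PFOS10 4 the POP10 call ended (adjusted p up to 0.121), as it did with no filter, after quantile normalization, with the medians set equal or with the 2 groups alone in the fit (up to 0.452). The PFOS70 call ended without PFOS10 3, PFOS10 4, PFOS70 1 or PFOS70 2 (up to 0.111) and after quantile normalization (adjusted p = 0.458). The last 2P gene, cyp2p10, passed in no comparison and had -0.057 (adjusted p = 0.788) between PFOS10 and Control and -0.14 (adjusted p = 0.350) between PFOS70 and PFOS10.

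Reads in this array can fall on more than 1 gene. The transcript cyp2v1-202 overlaps cyp2ad2, cyp2ad3 and one end of cyp2ad6 on the other strand, and cyp2p7-202 overlaps cyp2p8, cyp2p9, cyp2p10 and cyp2j20 on the same strand. Over all members, 12 of the transcripts used overlap a transcript of another symbol, 4 of them on the other strand. The sources used here do not state how reads matching several similar genes were counted, which leaves the values of these tandem copies uncertain. Within the array the values were not uniform, with differences between PFOS10 and Control from -1.63 (adjusted p = 0.0813) for cyp2n13 to -0.057 (adjusted p = 0.788) for cyp2p10.

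The 2AA genes, a subfamily known from fish, lie with cyp2ae1 on chromosome 23 from 42292748 to 42666469. Of these 9 members, 1 was lower in PFOS10 than in Control, 3 were higher in POP10 than in PFOS10 and 2 were higher in PFOS70 than in PFOS10. Over all genes these shares were 6.97%, 19.8% and 23.6%, so such small counts do not set the array apart. cyp2aa11 had 2.04, 1.65, 1.33 and 1.63 log2 RPM in POP10, 1.32, 1.87, -0.29 and 0.29 in POP70, -0.96, 0.91, 0.26 and -1.74 in PFOS10, 1.77, 2.69, 2.5 and 1.64 in PFOS70, and 0.94, 2.04, 0.64 and 2.36 in Control. This was 3 to 19 reads in PFOS10 and 17 to 52 in Control, and PFOS10 2 lay inside the Control range. cyp2aa11 differed by -1.88 ± 0.52 (SE, adjusted p = 0.0326) between PFOS10 and Control, by 2.04 ± 0.52 (SE, adjusted p = 0.00655) between POP10 and PFOS10 and by 2.53 ± 0.52 (SE, adjusted p = 0.00105) between PFOS70 and PFOS10. The call against Control ended without PFOS10 1, PFOS10 4, Control 2 or Control 4 (adjusted p up to 0.125) and with no filter, after quantile normalization, with the 2 groups alone in the fit or by limma voom (up to 0.0761). A further 2 transcripts of cyp2aa11 start elsewhere, at 42346799, and differed by 0.38 ± 0.76 (SE, adjusted p = 0.803) and 0.18 ± 0.57 (SE, adjusted p = 0.88) between PFOS10 and Control.

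cyp2aa1 had 2.97, 2.33, 2.81 and 2.51 log2 RPM in POP10, 2.97, 2.78, 2.39 and 2.36 in POP70, 1.72, 2.05, 2.0 and 2.23 in PFOS10, 2.83, 3.33, 3.05 and 2.6 in PFOS70, and 2.19, 2.83, 2.22 and 3.12 in Control. PFOS10 lay below POP10 and PFOS70 in cyp2aa1 and overlapped Control at its lower end. The difference was 0.66 ± 0.22 (SE, adjusted p = 0.0280) between POP10 and PFOS10, 0.95 ± 0.22 (SE, adjusted p = 0.00245) between PFOS70 and PFOS10 and -0.59 (adjusted p = 0.0941) between PFOS10 and Control. The POP10 call ended without POP10 1, POP10 3, PFOS10 1 or PFOS10 3 (adjusted p up to 0.0952) and after quantile normalization (adjusted p = 0.184). cyp2aa7 had 3.5, 3.18, 3.2 and 2.8 log2 RPM in POP10, 3.67, 3.45, 2.54 and 2.98 in POP70, 2.94, 2.66, 2.56 and 2.0 in PFOS10, 3.27, 3.42, 2.73 and 3.02 in PFOS70, and 3.09, 3.25, 3.14 and 3.24 in Control. In cyp2aa7 the PFOS10 libraries all lay below Control, whose 4 values were close together, and overlapped the other groups. It passed between POP10 and PFOS10, at 0.63 ± 0.23 (SE, adjusted p = 0.0386), but that call ended without POP10 1, POP10 2, POP10 3, PFOS10 2, PFOS10 3 or PFOS10 4 (adjusted p up to 0.124) and with no filter or after quantile normalization (up to 0.130). It was at -0.64 (adjusted p = 0.0795) between PFOS10 and Control and at 0.57 (adjusted p = 0.0554) between PFOS70 and PFOS10. The transcript of cyp2aa8 overlaps cyp2aa7 and cyp2aa4 on the same strand. The other 6 members of this array, cyp2aa2, cyp2aa3, cyp2aa4, cyp2aa8, cyp2aa9 and cyp2ae1, passed in no comparison, and their differences between PFOS10 and Control ran from -1.16 (adjusted p = 0.398) for cyp2aa9 to 0.12 (adjusted p = 0.876) for cyp2aa3.

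The 2K genes form an array of 8 on chromosome 3 from 12710350 to 12826386, of which 7 were tested. Of the 7, 1 was lower in PFOS10 than in Control, 4 were higher in POP10 than in PFOS10 and 6 were higher in PFOS70 than in PFOS10. Over all genes these shares were 6.97%, 19.8% and 23.6%. The zebrafish enzyme encoded by cyp2k6 turns the mould toxin aflatoxin B1 into its reactive epoxide. cyp2k6 had 2.17, 3.14, 1.26 and 1.95 log2 RPM in POP10, -0.14, 2.63, 2.88 and -0.85 in POP70, -3.44, 0.75, -1.32 and -1.0 in PFOS10, 2.58, 2.86, 2.22 and 3.09 in PFOS70, and 1.5, 2.04, 0.14 and 2.98 in Control. It had 0 to 17 reads in PFOS10, with 0 in PFOS10 1, against 12 to 80 in Control. PFOS10 overlapped Control and POP70 and lay below POP10 and PFOS70. The difference of cyp2k6 was -2.92 ± 0.81 (SE, adjusted p = 0.0323) between PFOS10 and Control, 3.39 ± 0.81 (SE, adjusted p = 0.00447) between POP10 and PFOS10 and 3.94 ± 0.81 (SE, adjusted p = 0.00102) between PFOS70 and PFOS10. Those sizes depend on the 0.9 reads that stand for 0. The call against Control ended without PFOS10 1, PFOS10 3, Control 1, Control 2 or Control 4 (adjusted p up to 0.123) and with no filter, after quantile normalization, with a pseudocount of 1 RPM, with the 2 groups alone in the fit or by limma voom (up to 0.0929). Between PFOS10 and Control the value ran from -3.59 to -2.19 when 1 library was left out and from -3.03 to -1.47 over 8 other settings with all libraries of both groups. The transcript cyp2k6-204, which can share reads with the one used, differed by -3.0 ± 0.79 (SE, adjusted p = 0.026) in the same comparison.

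cyp2k8 had 2.33, 2.43, 3.1 and 2.65 log2 RPM in POP10, 2.54, 2.55, 2.54 and 1.96 in POP70, 1.89, 1.75, 1.38 and 2.29 in PFOS10, 3.08, 2.95, 2.59 and 2.85 in PFOS70, and 2.41, 2.38, 2.33 and 2.74 in Control. The PFOS10 libraries of cyp2k8 lay below all POP10, PFOS70 and Control libraries, and POP70 4 lay among them. It differed by 0.80 ± 0.20 (SE, adjusted p = 0.00637) between POP10 and PFOS10, by 1.04 ± 0.20 (SE, adjusted p = 0.000698) between PFOS70 and PFOS10 and by -0.64 ± 0.20 (SE, adjusted p = 0.0548) between PFOS10 and Control, which missed the threshold. Its POP10 call ended after quantile normalization (adjusted p = 0.0818). cyp2k16 had 4.24, 3.9, 4.41 and 3.14 log2 RPM in POP10, 4.61, 4.31, 3.15 and 3.61 in POP70, 3.02, 2.75, 2.32 and 2.83 in PFOS10, 4.1, 4.73, 3.38 and 3.12 in PFOS70, and 3.6, 4.16, 2.86 and 3.32 in Control. In cyp2k16 PFOS10 lay below POP10 and PFOS70, and Control 3 lay within its range. The difference was 1.19 ± 0.36 (SE, adjusted p = 0.0159) between POP10 and PFOS10, 1.11 ± 0.36 (SE, adjusted p = 0.0213) between PFOS70 and PFOS10 and -0.75 (adjusted p = 0.191) between PFOS10 and Control. The POP10 call ended without POP10 1, POP10 3 or PFOS10 3 (adjusted p up to 0.0529). The PFOS70 call ended without PFOS10 3, PFOS70 1 or PFOS70 2 (up to 0.0971) and after quantile normalization (adjusted p = 0.0517).

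cyp2k17 had 1.38, 1.3, 0.83 and 1.84 log2 RPM in POP10, 0.45, 1.35, 1.66 and 0.0029 in POP70, 0.96, -1.75, -0.74 and 0.76 in PFOS10, 1.77, 1.34, 1.59 and 1.64 in PFOS70, and 1.13, 1.97, 0.72 and 0.98 in Control. The PFOS10 libraries of cyp2k17 split, with 1 and 4 near Control and 2 and 3 far below. Few reads stand behind this split, 19, 3, 6 and 17 in the PFOS10 libraries against 18 to 43 in Control. cyp2k17 differed by 1.53 ± 0.48 (SE, adjusted p = 0.0194) between POP10 and PFOS10, by 1.78 ± 0.48 (SE, adjusted p = 0.00679) between PFOS70 and PFOS10 and by -1.39 (adjusted p = 0.0709) between PFOS10 and Control. The POP10 call ended without POP10 4, PFOS10 2 or PFOS10 3 (adjusted p up to 0.0860) and after quantile normalization or with the 2 groups alone in the fit (up to 0.118), and the PFOS70 call after quantile normalization (adjusted p = 0.0547). cyp2k18 had 2.07, 2.48, 2.65 and 2.12 log2 RPM in POP10, 3.29, 3.51, 2.03 and 1.36 in POP70, 1.8, 2.39, 1.8 and 1.14 in PFOS10, 3.17, 3.73, 3.0 and 2.24 in PFOS70, and 1.72, 2.81, 1.14 and 1.66 in Control. cyp2k19 had 3.7, 3.16, 3.82 and 2.54 log2 RPM in POP10, 4.16, 4.29, 2.99 and 2.83 in POP70, 2.18, 2.75, 2.32 and 2.1 in PFOS10, 3.78, 4.74, 3.99 and 2.66 in PFOS70, and 3.1, 3.69, 1.98 and 3.03 in Control. In both, PFOS70 was past the threshold against PFOS10 although its lowest library, PFOS70 4, overlapped PFOS10. The difference was 1.25 ± 0.42 (SE, adjusted p = 0.0262) for cyp2k18, which ended without PFOS10 1, PFOS10 3, PFOS10 4, PFOS70 1 or PFOS70 2 (adjusted p up to 0.0972) and after quantile normalization (adjusted p = 0.0745). It was 1.45 ± 0.41 (SE, adjusted p = 0.0102) for cyp2k19, which ended without PFOS70 2 (adjusted p = 0.0504). Between PFOS10 and Control cyp2k18 was at -0.049 (adjusted p = 0.955) and cyp2k19 at -0.61 (adjusted p = 0.369). The seventh, cyp2k21, passed in no comparison and had -0.92 (adjusted p = 0.468) there.

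The 2X genes, first described in catfish, lie on chromosome 25 from 17358287 to 17403598 and on chromosome 7. None was past the threshold between PFOS10 and Control by limma. cyp2x9 had 3.58, 2.51, 3.55 and 2.97 log2 RPM in POP10, 3.83, 3.95, 1.71 and 2.39 in POP70, 1.52, 2.09, 1.43 and 0.14 in PFOS10, 2.94, 4.59, 3.35 and 2.0 in PFOS70, and 2.83, 3.72, 2.01 and 3.52 in Control. PFOS10 2 lay just inside the Control range and the other PFOS10 libraries below it. cyp2x9 differed by -1.73 ± 0.54 (SE, adjusted p = 0.0525) between PFOS10 and Control, by 1.86 ± 0.54 (SE, adjusted p = 0.0139) between POP10 and PFOS10 and by 1.93 ± 0.54 (SE, adjusted p = 0.00943) between PFOS70 and PFOS10. cyp2x7 had 1.21, 0.54, 0.99 and 1.95 log2 RPM in POP10, 1.86, 1.21, 0.22 and 0.74 in POP70, 1.04, 0.36, 0.13 and -0.74 in PFOS10, 1.81, 1.88, 1.28 and 1.42 in PFOS70, and -0.13, 0.36, 1.36 and 1.12 in Control. The PFOS70 libraries of cyp2x7 lay above the PFOS10 libraries, at a difference of 1.4 ± 0.41 (SE, adjusted p = 0.0118) that was 0.86 after quantile normalization and then did not pass (adjusted p = 0.0892), while POP10 was at 0.97 (adjusted p = 0.0745) against PFOS10. cyp2x8, of the same array, and cyp2x12, on chromosome 7, passed in no comparison. cyp2x8 was at 1.9 (adjusted p = 0.0628) between POP10 and PFOS10 with no overlap, and cyp2x12 at 1.34 (adjusted p = 0.0891) between PFOS70 and PFOS10 with no overlap. Both rest on few reads. cyp2x8 had 1 to 4 in PFOS10 and 6 to 11 in POP10, and cyp2x12 had 2 to 7 in PFOS10 and 9 to 11 in PFOS70.

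**Figure D4:**
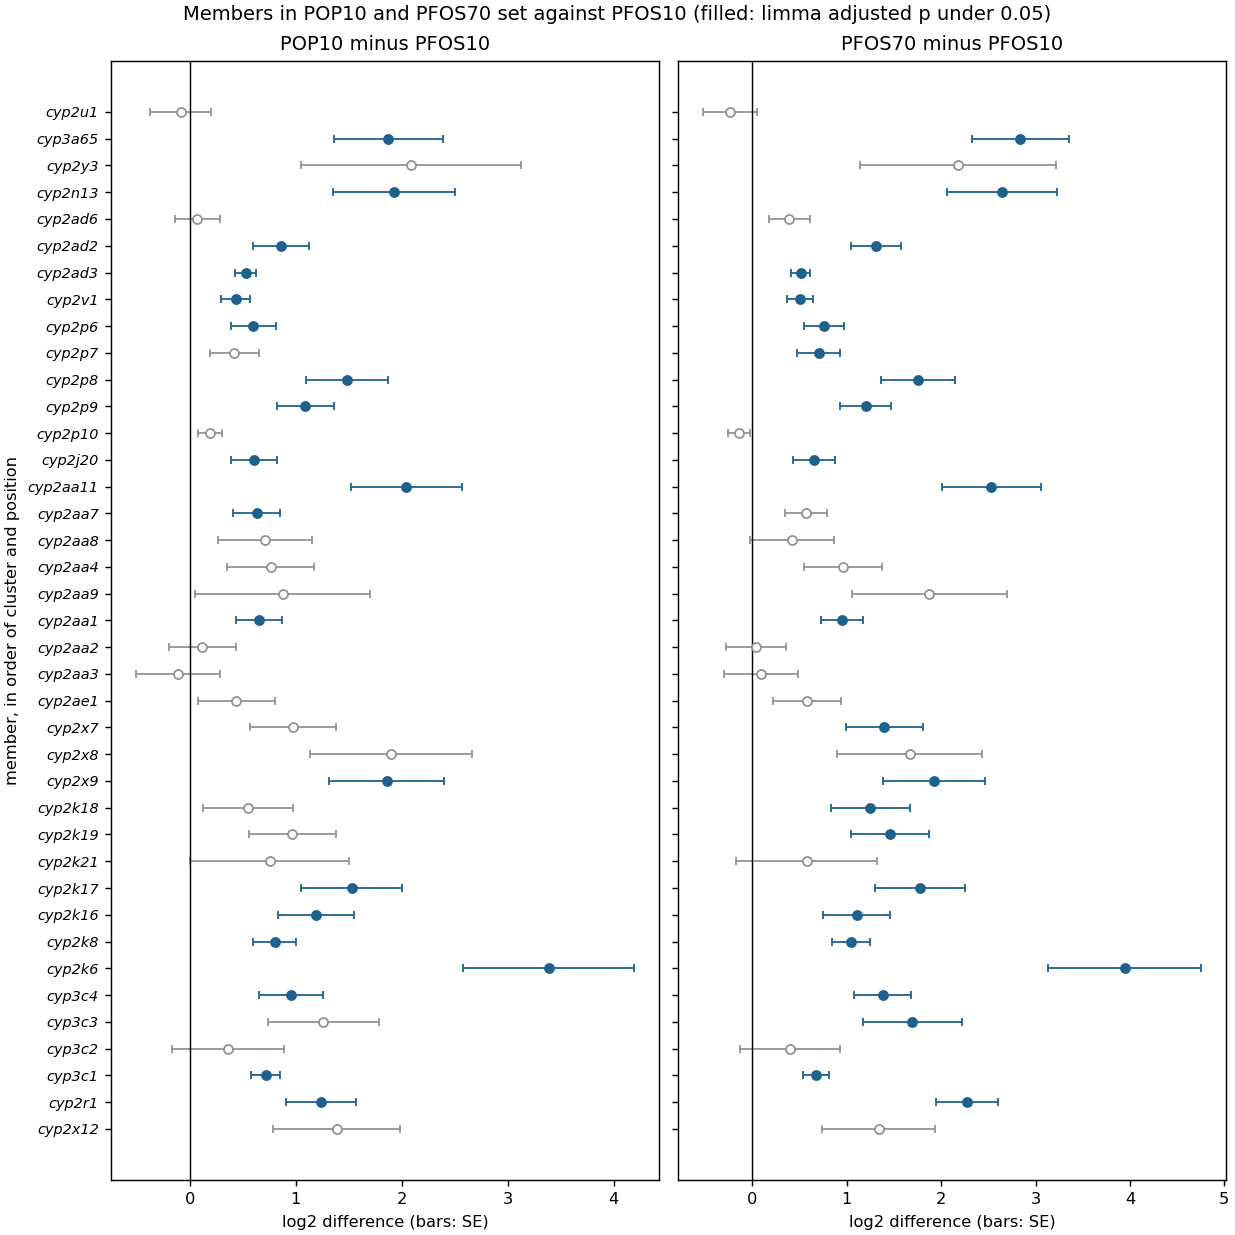
Log2 difference of POP10 (left) and of PFOS70 (right) from PFOS10 for the 39 tested members, in order of group of neighbours and position. Points are limma estimates, bars are SE, and filled points have an adjusted p under 0.05. The 20 filled points on the left and 24 on the right all lie above 0, and cyp2k6 lies farthest right in both, at 3.39 and 3.94.

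Members with few reads could not be followed. Of the 43, cyp2k20, cyp2k22, cyp2x10.2 and cyp2x6 were not tested because fewer than 4 libraries reached 0 log2 RPM. cyp2k20 had at most 2 reads in a library, cyp2k22 at most 1, cyp2x6 at most 5 and cyp2x10.2 at most 10. Among the tested members 14 passed in no comparison, and their differences between PFOS10 and Control ran from -1.31 to 0.15 with a smallest adjusted p of 0.293. Between PFOS70 and PFOS10 they ran from -0.24 to 2.18, with a smallest adjusted p of 0.0775. The widest of these, cyp2y3, was at 2.18 ± 1.04 (SE, adjusted p = 0.111) there and had 2 libraries at 0 reads.

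The mixture and the higher PFOS level were each set against Control, which is the question of what these exposures did to the P450 genes. No member passed the test by limma in POP10, POP70 or PFOS70 against Control, where 0%, 0.0156% and 0% of all genes did. Nor did any by limma voom. Unadjusted p was under 0.05 for 2 members in POP10, 0 in POP70 and 5 in PFOS70, beside 9.63%, 10.2% and 11.7% of all genes. The smallest adjusted p was 0.51 for cyp2r1 in POP10, 0.552 for cyp2k18 in POP70 and 0.265 for cyp2ad2 in PFOS70. Member differences ran from -1.01 to 1.83 in POP10, from -0.70 to 1.28 in POP70 and from -0.34 to 1.93 in PFOS70, so the data do not show that the groups were alike. Their medians were 0.14, -0.016 and 0.35, beside 0.012, 9e-04 and 0.023 over all genes. The difference was positive for 33 of 39 members in PFOS70, beside 55.5% of all genes. In the same comparison it was positive for 18 of 18 hepatocyte markers (median 1.08), 9 of 12 enterocyte markers (median 0.18) and 13 of 13 exocrine pancreas markers (median 0.76), none past the threshold. Summed hepatocyte markers had 5434 to 9646 RPM in PFOS70 and 2858 to 8391 in Control, and the part of these markers was not tested.

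Among the members with low p in PFOS70 against Control, cyp2ad2 differed by 0.87 ± 0.27 (SE, adjusted p = 0.265), cyp2k18 by 1.2 ± 0.42 (SE, adjusted p = 0.297) and cyp3a65 by 1.14 ± 0.51 (SE, adjusted p = 0.396), none past the threshold. cyp2v1 was at 0.36 (adjusted p = 0.324) and cyp2x7 at 0.92 (adjusted p = 0.387). The PFOS70 and Control libraries of cyp3a65 overlapped, with PFOS70 4 at 6.12 and Control 4 at 6.53 log2 RPM. The mixture at the higher level was also compared with PFOS alone at its amount in that mixture. Between POP70 and PFOS70 no member passed, 0.181% of all genes did, and unadjusted p was under 0.05 for 5 members beside 11.1% of all genes, with the smallest adjusted p of 0.3 for cyp2ad2. The median member difference was -0.31 there, beside -0.05 over all genes. Hepatocyte markers were at a negative difference in 18 of 18 (median -0.77), enterocyte markers in 10 of 12 (median -0.33) and exocrine pancreas markers in 13 of 13 (median -0.65), none past the threshold, and their part was not tested. Between POP70 and POP10 no member and 0% of all genes passed, unadjusted p was under 0.05 for 1 member, cyp2r1, beside 3.01% of all genes, and the median was -0.12. limma voom also gave 0 members in both.

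Regulators and partners of P450 enzymes were looked at as whole lists. Each count stands beside the share over all genes. That share was 6.97% lower in PFOS10 than in Control. Against PFOS10, 19.8% of all genes were higher in POP10 and 23.6% in PFOS70. Of all 19289 genes tested, 2239 were lower in POP10 and 2077 in PFOS70 than in PFOS10. Of 25 tested nuclear receptors and transcription factors, 3 were lower in PFOS10 than in Control and 0 higher, 11 were higher in POP10 than in PFOS10 and 14 were higher in PFOS70 than in PFOS10, with 0 lower in both. The median differences were -0.25, 0.25 and 0.46. nr1i2, the pregnane X receptor, averaged 2.98 ± 0.18 log2 RPM in PFOS10 and 3.8 ± 0.44 in Control (SD, n = 4 each), a log2 difference of -0.82 (adjusted p = 0.0188). It differed by 1.06 (adjusted p = 0.00102) between POP10 and PFOS10 and by 1.26 (adjusted p = 0.000148) between PFOS70 and PFOS10. foxa3, a forkhead factor of liver and gut, differed by -0.64 (adjusted p = 0.0335) between PFOS10 and Control and by 1.27 (adjusted p = 7.32e-05) between PFOS70 and PFOS10. nr0b2a, a nuclear receptor that represses others, was the third lower gene, at -1.4 (adjusted p = 0.0461), and is named because it completes that count. ahr2, the receptor for dioxin-like compounds, was at -0.40 (adjusted p = 0.0877) and 0.66 (adjusted p = 0.00156) in the same comparisons, and cebpb at -0.25 (adjusted p = 0.294) and 0.66 (adjusted p = 0.00169).

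Beside 6.97% of all genes, 1 of 10 genes that pass electrons to P450 enzymes or bind them was lower in PFOS10 than in Control. This was porb, a gene for P450 oxidoreductase, which averaged 5.64 ± 0.26 log2 RPM in PFOS10 and 6.6 ± 0.41 in Control (SD, n = 4 each), a log2 difference of -0.96 (adjusted p = 0.00842). Between PFOS70 and PFOS10 porb differed by 1.4 (adjusted p = 7.23e-05). pora, the other oxidoreductase gene, was at -0.16 (adjusted p = 0.269) between PFOS10 and Control. Of the 10, 5 were higher in PFOS70 than in PFOS10, beside 23.6% of all genes. In the same comparison 1 was lower, beside 2077 of all 19289 genes tested. The higher ones included cytochrome b5 (cyb5a, 0.93 (adjusted p = 0.000904)), its reductase cyb5r3 (0.51 (adjusted p = 0.00305)) and the membrane heme protein pgrmc1 (0.72 (adjusted p = 0.000928)), beside porb and cyb5r2 (1.17 (adjusted p = 0.00504)). The lower one was cyb5r4 (-0.31 (adjusted p = 0.0115)). Between POP10 and PFOS10, 6 were higher, beside 19.8% of all genes. In that comparison 2, cyb5r4 (-0.27 (adjusted p = 0.0293)) and pgrmc2 (-0.23 (adjusted p = 0.0186)), were lower, beside 2239 of all 19289 genes tested. cyb5r2, cyb5r4 and pgrmc2 are named because they complete counts.

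Among 14 genes of heme synthesis and breakdown, blvra, a biliverdin reductase, was the 1 that was lower in PFOS10 than in Control, at -0.43 (adjusted p = 0.0367). This count is near the 6.97% of all genes and is no result about the list. Between PFOS70 and PFOS10, 7 were higher, among them blvra (0.54 (adjusted p = 0.00253)), the synthesis enzymes urod (0.52 (adjusted p = 0.00975)) and hmbsa (0.43 (adjusted p = 0.0174)), and the heme oxygenase hmox1a (1.47 (adjusted p = 0.0135)). Between POP10 and PFOS10, 4 were higher, namely alad (0.27 (adjusted p = 0.0403)), hmox1a (1.43 (adjusted p = 0.0186)), blvra (0.47 (adjusted p = 0.00836)) and blvrb (0.33 (adjusted p = 0.0369)). No gene of this list was lower in either comparison by limma. Of all genes, 23.6% were higher in PFOS70 and 19.8% in POP10 than in PFOS10.

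Enzymes that conjugate P450 products differed in the same libraries. Of all genes, 6.97% were lower in PFOS10 than in Control and 23.6% were higher in PFOS70 than in PFOS10. Of 15 tested sulfotransferases, 7 were lower in PFOS10 than in Control, with a median of -0.97, and 11 were higher in PFOS70 than in PFOS10. In these 2 comparisons sult6b1 differed by -0.70 (adjusted p = 0.0364) and 1.17 (adjusted p = 0.000265), sult3st1 by -1.08 (adjusted p = 0.0206) and 1.35 (adjusted p = 0.000821), sult2st1 by -0.78 (adjusted p = 0.0233) and 0.98 (adjusted p = 0.000948), and sult3st2 by -1.43 (adjusted p = 0.0208) and 1.71 (adjusted p = 0.00117). Of 23 UDP-glucuronosyltransferases, 3 of subfamily 5 were lower in PFOS10 than in Control, with a median of -0.35, and 16 were higher in PFOS70 than in PFOS10. The 3 were ugt5a1 (-3.07 (adjusted p = 0.00769)), ugt5d1 (-1.72 (adjusted p = 0.0249)) and ugt5b2 (-1.09 (adjusted p = 0.0409)). Between PFOS70 and PFOS10 they differed by 3.21 (adjusted p = 0.000653), 2.35 (adjusted p = 0.000604) and 1.53 (adjusted p = 0.00121), and ugt5a2 by 3.21 (adjusted p = 0.00265). Of 15 glutathione S-transferases 2 were lower in PFOS10 than in Control, gsto2 (-0.70 (adjusted p = 0.0428)) and gstt1a (-0.72 (adjusted p = 0.0358)), and 11 were higher in PFOS70 than in PFOS10. Those 11 included gsto2 (1.22 (adjusted p = 0.000263)), gstk1 (0.44 (adjusted p = 0.000423)), gstp2 (3.07 (adjusted p = 0.000529)) and gstp1 (0.64 (adjusted p = 0.000893)). gstt1a is named because it completes a count.

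P450 genes of other families were set beside the members. Of all genes, 6.97% were lower in PFOS10 than in Control and 23.6% were higher in PFOS70 than in PFOS10. Of all 19289 genes tested, 247 were higher in PFOS10 than in Control and 2077 were lower in PFOS70 than in PFOS10. Of 31 tested, 4 were lower and 1 was higher in PFOS10 than in Control, with a median of -0.37 beside -0.59 for the members, and 14 were higher and 2 lower in PFOS70 than in PFOS10, with a median of 0.49 beside 1.11. Whether the members and the other families differ was not tested. cyp24a1, the vitamin D 24-hydroxylase, differed by -1.44 (adjusted p = 0.0225) between PFOS10 and Control and by 2.49 (adjusted p = 8.91e-05) between PFOS70 and PFOS10. cyp4v7, a gene of the fatty acid family 4, differed by -0.76 (adjusted p = 0.0276) and 1.26 (adjusted p = 0.000172), and cyp27a7, of the sterol 27-hydroxylase family, by -0.41 (adjusted p = 0.144) and 1.03 (adjusted p = 0.000248). cyp11c1, which makes cortisol in fish, moved the other way, by 0.39 (adjusted p = 0.0452) and -0.66 (adjusted p = 0.000349). Also lower in PFOS10 than in Control were cyp7a1 (-1.42 (adjusted p = 0.0295)), the rate-limiting enzyme of bile acid synthesis, and cyp1a (-1.0 (adjusted p = 0.0381)), the classical target of dioxin-like compounds. The second gene lower in PFOS70 than in PFOS10 was cyp19a1a (-1.67 (adjusted p = 0.0450)), an aromatase. These last 3 are named because they complete counts. A shift to equal medians moves every gene of a comparison by the amounts given above. No gene named from these lists as past the threshold changes direction under it. This follows from the sizes of the differences and is no further test.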

How the data were processed

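The data were log2 values of 48838 transcripts in 20 columns, deposited by the authors as a single table. Without giving roles, the submitters' processing notes list R 3.5.0, DESeq2, STAR 2.5.4b, the build GRCz11 and Trim Galore 0.4.5. From the values, each is log2 RPM with 0 reads written as 0.9 reads, since 100% of values from 1 to 1000 reads came out whole within 0.05. Symbols are row names less the transcript number. Coordinates are those of the table, taken as GRCz11. Each symbol was represented by its transcript of highest mean. A gene was tested if 4 or more libraries reached 0 log2 RPM, which left 19289, and the test was run with limma 3.58.1 in R 4.3.3 in 1 model of 20 libraries, with a mean-variance trend, 15 residual degrees of freedom and no covariate. P-values are two-sided and Benjamini-Hochberg adjusted over all genes in each of 8 comparisons, at 0.05. Recovered reads were also tested with limma voom after scaling by trimmed means of log ratios, and scripts were tested on simulated data. The members, lists and rule for named genes (each member past the threshold in any comparison, those of highest Control mean, and per list up to 4 genes of smallest p between PFOS70 and PFOS10) were chosen with earlier results of these data known. The all-transcript fit and the difference of dose effects were chosen after seeing the data. Depths cover counting error only.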

Additional observations from a re-analysis of the deposited data

Results flagged for a closer look

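The effect of dose, the higher less the lower level, differed between the mixture and PFOS alone in 14 of 39 members. This was by a limma contrast added after the data were seen, at an adjusted p under 0.05. The difference was negative in all 14. Of all genes, 13.2% were past the same threshold with a negative difference. All 4 groups other than Control enter the contrast, PFOS10 among them. The largest was cyp2k6 at -4.95 ± 1.14 (SE, adjusted p = 0.00808), where the mixture's dose effect was -1.0 and that of PFOS 3.94 on the log2 scale. For cyp2aa11 the difference was -3.4 ± 0.74 (SE, adjusted p = 0.00584), for cyp2n13 -3.22 ± 0.82 (SE, adjusted p = 0.0127) and for cyp3a65 -2.83 ± 0.73 (SE, adjusted p = 0.0138). In cyp2k17 it was -2.25 ± 0.67 (SE, adjusted p = 0.0286), in cyp2p8 -1.81 ± 0.55 (SE, adjusted p = 0.0303), in cyp2ad2 -1.66 ± 0.38 (SE, adjusted p = 0.00730) and in cyp3c4 -1.52 ± 0.42 (SE, adjusted p = 0.0212). In cyp2p9 it was -1.33 ± 0.38 (SE, adjusted p = 0.0252), in cyp2k8 -1.27 ± 0.29 (SE, adjusted p = 0.00729) and in cyp2aa1 -0.98 ± 0.31 (SE, adjusted p = 0.0361). The smallest were cyp3c1 at -0.77 ± 0.19 (SE, adjusted p = 0.0126), cyp2v1 at -0.64 ± 0.19 (SE, adjusted p = 0.0302) and cyp2ad3 at -0.63 ± 0.15 (SE, adjusted p = 0.00783). The median over the 39 members was -1.17.

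In 8 of 195 groups of 4 libraries, 1 library stood far from the other 3, and chance alone gives about 1 in 20 groups. Below the rest of their group were POP70 3 for cyp2ae1 (-0.78 log2 RPM, with the others at 1.03 to 1.15) and for cyp2k21 (-3.25, others -0.0085 to 0.45), and POP70 4 for cyp2k8 (1.96, others 2.54 to 2.55). So were PFOS10 4 for cyp2p8 (1.53, others 2.36 to 2.51), POP10 2 for cyp2x12 (-1.16, others 0.33 to 0.54), POP10 3 for cyp2aa2 (-0.090, others 1.54 to 1.85) and POP10 4 for cyp2y3 (-2.37, others 0.30 to 0.77). Above the rest was POP10 1 for cyp3c4 (3.74, others 2.86 to 2.97). In cyp2p8 PFOS10 4 is the lowest library of a group that lay below Control, so leaving it out could not make the groups overlap. The limma call of cyp2p8 against Control ended without PFOS10 4.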

How the results depend on the processing

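Between PFOS10 and Control the 7 lower members became 3 with no filter and 3 by limma voom. They became 2 after quantile normalization, where 533 of all genes were lower, against 1344 as deposited. A filter of 3 log2 RPM gave 4, since cyp2r1, cyp2aa11 and cyp2k6 were then not tested, and the other 4 kept their calls. Between POP10 and PFOS10 the 20 higher members became 10 after quantile normalization, where 2690 of all genes were higher, against 3812 as deposited. With the stricter filter they became 13, and the 24 between PFOS70 and PFOS10 became 15. That filter tests 19 members, so 13 and 15 are out of 19 and not out of 39. Quantile normalization also ended calls between PFOS70 and PFOS10, in the members named above with the shift to equal medians. Leaving out 1 library gave 1 to 13, 12 to 21 and 18 to 26 members in these comparisons, with the lowest in POP10 against PFOS10 without POP10 1, and 0 in each of the other 5. With the replicate number as a block the counts were 12, 23 and 26, and 0 in the other 5 comparisons. Whether the numbers pair the samples is not settled. Of 40 same-numbered pairs 12 correlated above 0.1, and 5 of 20 libraries correlated best with their own number. With 4 replicate numbers, about 1 library in 4 does so by chance. The median correlation was 0.039 in same-numbered and -0.019 in other-numbered pairs, and the difference was not tested. Of 1508 values of members past the threshold under other settings, 0 reversed direction and 1381 stayed past it. Part of these were fixed in advance. Of the 20 fits that left out 1 library, 8 per result dropped a library of the compared groups. In the rest the difference could not change, so they do not test direction. The same holds for a changed filter, for the compared groups alone in the fit and for the replicate block, which leave the difference as it was. The causes were not tested. Few reads limit the values of cyp2k6, cyp2aa11, cyp2k17 and cyp2r1 in PFOS10, with at most 19 reads of each gene per library.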
